A study of Homo sapiens with 38 samples.

Results

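The genomic sites described here were bound by the isolated DNA binding domain of Sp1 but were missing from the peak list of full-length Sp1. CUT&RUN, in which an antibody directs a nuclease to the protein of interest and the released DNA is sequenced, gave 3277 reproducible peaks for the FLAG-tagged Sp1 DBD. Of these, 768 overlapped no peak of the FLAG-tagged full-length protein (Sp1 WT, 5151 peaks) by even 1 bp, which is 23.4% of the list (95% Wilson interval 22 to 24.9). The other 2509 Sp1 DBD peaks overlapped at least 1 Sp1 WT peak and served as the comparison. The 768 members were defined by this comparison of deposited lists, so their position relative to Sp1 WT peaks is not itself a result.

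All samples came from 1 clone of U2OS, a human osteosarcoma line, in which both endogenous Sp1 alleles carry V5 and Halo. The unmodified knock-in line (CTRL, called parental below) has no transgene, and in the derived lines a SNAPf- and FLAG-tagged construct with a nuclear localization signal sits at the AAVS1 locus under a doxycycline-inducible promoter. For every sample, the parental line included, the labels give 1 μg/ml doxycycline for 36 h, a sort meant to select transgene-expressing cells and another 36 h in doxycycline, and every derived line expressed V5-Halo-Sp1 beside its construct. The constructs were full-length Sp1 (Sp1 WT), the Sp1 DBD alone, the Sp1 DBD fused to the disordered region of EWS (EWS IDR-Sp1 DBD), the CTCF DBD, the Sp1 IDR fused to the CTCF DBD or to LacI, LacI alone, a DNA binding mutant of Sp1 (Sp1 DBD Mutant) and SNAPf-NLS, a tag with no Sp1 sequence. FLAG was read in 10 lines with a mouse antibody, and the endogenous protein was read through V5 in 4 of them with a rabbit and a mouse antibody (CTRL, Sp1 WT, Sp1 IDR-LacI and Sp1 IDR-CTCF DBD). Each of the 19 lists was made from 2 biological replicates together and therefore has no replicates of its own.

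Sp1 is a broadly expressed transcription factor that recognizes GC-rich elements, called GC boxes, through zinc fingers near its C terminus. GC boxes are frequent in CpG-rich promoters, and the remainder of the protein consists largely of disordered, glutamine-rich regions that contact other proteins. The isolated DBD keeps the zinc fingers and lacks most of the disordered sequence, whereas the EWS chimera carries the same zinc fingers behind an unrelated disordered region. CTCF binds a long element of its own through a different array of zinc fingers.

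To show what the DBD occupied at these sites, the hg38 sequence within 100 bp of the summit is given for members that the text returns to. Capitals mark the GC box, GGGCGG or its reverse complement CCGCCC, and each member is named by the gene with the nearest annotated start. The first 5 windows hold at least 1 GC box and the last 5 hold none.
ATXN7L3 (chr17:44199986-44200186, plus strand): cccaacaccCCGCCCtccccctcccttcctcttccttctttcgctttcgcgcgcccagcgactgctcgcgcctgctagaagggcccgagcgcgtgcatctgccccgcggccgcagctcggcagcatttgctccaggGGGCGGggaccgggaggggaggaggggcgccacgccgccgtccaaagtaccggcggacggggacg
OGG1 (chr3:9750017-9750217, plus strand): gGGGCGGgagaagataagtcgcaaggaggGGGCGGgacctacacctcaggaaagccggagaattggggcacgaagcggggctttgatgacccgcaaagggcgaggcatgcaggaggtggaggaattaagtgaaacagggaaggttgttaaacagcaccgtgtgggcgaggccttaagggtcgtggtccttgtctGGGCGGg
DNAJC28 (chr21:33491560-33491760, plus strand): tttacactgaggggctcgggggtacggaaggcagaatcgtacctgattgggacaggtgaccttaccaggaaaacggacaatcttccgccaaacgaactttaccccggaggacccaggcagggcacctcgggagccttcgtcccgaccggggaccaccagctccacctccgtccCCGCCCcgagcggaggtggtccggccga
ENSG00000286428 (chr9:126722620-126722820, plus strand): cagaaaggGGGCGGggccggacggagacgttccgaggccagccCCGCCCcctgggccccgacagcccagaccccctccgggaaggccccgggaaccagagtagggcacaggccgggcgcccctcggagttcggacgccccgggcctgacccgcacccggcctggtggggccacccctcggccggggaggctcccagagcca
SLC35C1 (chr11:45805161-45805361, plus strand): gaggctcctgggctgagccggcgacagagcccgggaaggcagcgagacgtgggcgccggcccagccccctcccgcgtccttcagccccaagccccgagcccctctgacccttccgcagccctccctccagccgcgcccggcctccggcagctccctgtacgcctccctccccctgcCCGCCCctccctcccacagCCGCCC
SAP130 (chr2:128027892-128028092, plus strand): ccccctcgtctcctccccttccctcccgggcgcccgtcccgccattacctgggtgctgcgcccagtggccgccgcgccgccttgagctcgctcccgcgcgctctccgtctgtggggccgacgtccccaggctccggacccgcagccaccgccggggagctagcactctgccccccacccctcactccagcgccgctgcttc
TOMM6 (chr6:41787159-41787359, plus strand): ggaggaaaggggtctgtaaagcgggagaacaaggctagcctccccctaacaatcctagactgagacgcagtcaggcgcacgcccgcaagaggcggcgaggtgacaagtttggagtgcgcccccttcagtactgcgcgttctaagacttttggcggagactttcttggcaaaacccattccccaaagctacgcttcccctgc
NECTIN2 (chr19:44845746-44845946, plus strand): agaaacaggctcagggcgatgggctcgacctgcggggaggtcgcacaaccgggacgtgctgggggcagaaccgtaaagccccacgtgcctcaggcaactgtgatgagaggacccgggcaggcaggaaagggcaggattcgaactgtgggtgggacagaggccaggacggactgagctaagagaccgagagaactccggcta
RN7SL499P (chr2:231673098-231673298, plus strand): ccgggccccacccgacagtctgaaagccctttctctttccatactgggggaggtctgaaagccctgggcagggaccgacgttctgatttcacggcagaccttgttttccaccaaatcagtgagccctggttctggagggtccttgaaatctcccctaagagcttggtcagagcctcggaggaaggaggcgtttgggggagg
ATF6B (chr6:32128271-32128471, plus strand): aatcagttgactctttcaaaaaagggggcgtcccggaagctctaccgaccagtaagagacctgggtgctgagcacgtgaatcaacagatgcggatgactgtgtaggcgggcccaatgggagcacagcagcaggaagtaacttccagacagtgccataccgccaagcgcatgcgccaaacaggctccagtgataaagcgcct

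These windows show both arrangements found among the members. The OGG1 window held 3 GC boxes, near its edges rather than at the summit, whereas the SAP130 window was GC-rich (76.1% G or C) without a single exact GC box. The ATF6B peak lacked a GC box over its whole width of 1660 bp. The CTCF core motif was searched in the same windows around the Sp1 DBD summit, where it was rare (0.13% of members, 0.12% of the others). It occurred there in none of the 31 members that overlapped a CTCF DBD peak, and in 2 of them over the whole peak. So rare a pattern cannot show whether these members carry a CTCF site.

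The members spanned nearly the whole range of the Sp1 DBD list. Peaks were ranked by the −log10 p of the merged peak, which in each list equals the smaller of both replicate values, and the members ran from rank 12 to rank 3275. Their −log10 p had a median of 13.4 (quartiles 10.8 and 20.9, highest 75.3), against 16.9 (quartiles 12.6 and 25.5, highest 102) for the other Sp1 DBD peaks. With the list cut into 4 parts of equal size by rank, members made up 17.3% of the highest part (142 of 820), 17.7% of the next, 22.1% of the following and 36.6% of the lowest (300 of 819). Thus they were more frequent among weak peaks, yet 286 members lay above the middle rank of the list. Widths had medians of 940 bp for members and 923 bp for the others. At a stricter irreproducible discovery rate of 0.01, 31% of members and 45.4% of the other peaks would have been kept. These values belong to the list that chose the members and are given without a test.

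Both replicates carried the signal at the members. The first replicate had a median −log10 p of 15.5 and the second of 15.2, against 19 and 20.3 at the other peaks. Across peaks, the Spearman correlation between replicates was 0.769 for the members and 0.785 for the others, as a description over 768 and 2509 peaks that share the same 2 libraries and were all selected for reproducibility.

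**Figure D1:**
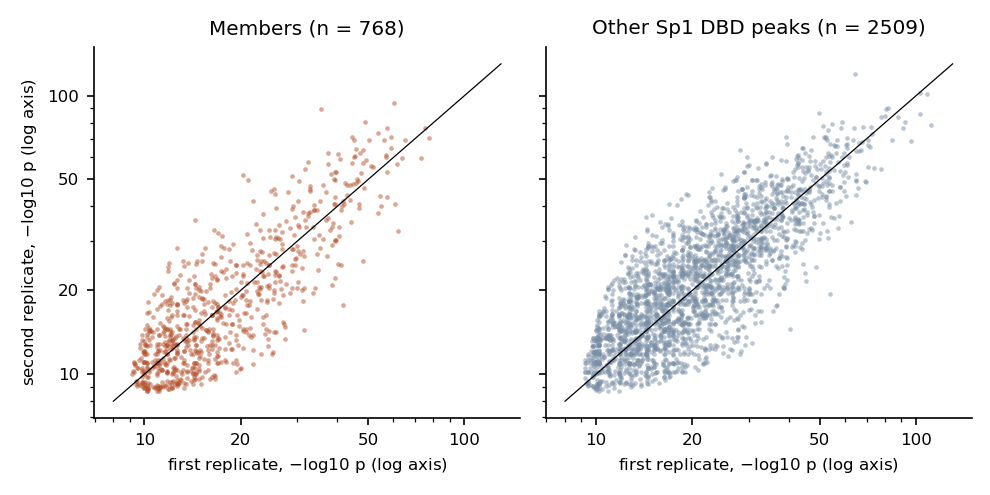
Each point is 1 Sp1 DBD peak, with −log10 p in the first replicate on the horizontal axis and in the second on the vertical axis (log axes), for the 768 members and the 2509 other peaks. The line marks equal values, and both sets spread along it, with the members reaching 77.7 in the first and 94.0 in the second replicate.

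The members did not lie at the edges of Sp1 WT peaks. Only 9 of the 768 had a Sp1 WT peak within 500 bp, 22 within 1000 bp and 121 within 10000 bp, and the median gap was 62490 bp. The members nearest to the limit were 80, 162 and 206 bp from a Sp1 WT peak, while the smallest overlaps on the other side of it were 147, 151 and 155 bp. These gaps follow from how the members were chosen and are a description.

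Among the strongest members were peaks at the starts of protein-coding genes. The highest of all lay at the start of ATXN7L3 (chr17:44198646-44200908), which encodes an adaptor of the SAGA deubiquitinase module, with −log10 p of 75.3 and 76.8 in the replicates and its summit 27 bp from the annotated start. It overlapped peaks in 5 of the 8 anti-V5 lists but none in the EWS chimera list. SAP130 (chr2:128027236-128029189), which encodes a subunit of the SIN3 histone deacetylase complex, followed with 77.7 and 70.7, and recurred in the EWS chimera list at rank 30 and in all 8 anti-V5 lists at ranks 241 to 507. OGG1 (chr3:9749375-9750485), the gene of the glycosylase that removes 8-oxoguanine from DNA, had 63.9 and 59.6 with its summit 15 bp from the start, and recurred at rank 67 in the EWS list and in all 8 anti-V5 lists. A member 74 bp from the start of the long noncoding RNA ENSG00000242880 and within 1000 bp of a start of ZBTB20, a zinc finger repressor gene (chr3:115146185-115148084), had 55.9 and 69.3, rank 23 in the EWS list and ranks 110 to 205 in the 8 anti-V5 lists. These last 3 sites therefore carried peaks of endogenous full-length Sp1 in every line profiled with anti-V5 and of both the Sp1 DBD and the EWS chimera, and had none in the FLAG list of the Sp1 WT transgene.

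The other members among the 10 highest that were named were at noncoding genes or in repeated sequence. Members on chromosome 8 or on unplaced sequences were not named. The chromosome 8 member at rank 38 was outside repeated sequence and in all 8 anti-V5 lists. Those at ranks 49 and 50 lay on the unplaced sequence Un_GL000220v1, with 100% repeated words. ENSG00000279161 (chr19:46637245-46640042), a transcript with no assigned class, had 65.0 and 69.1 and recurred in the EWS list and in 2 anti-V5 lists. The pseudogene FAM86KP (chr4:9152182-9153571) had 57.4 and 76.3 and likewise recurred in the EWS list and in 2 anti-V5 lists. A site 4556 bp from CD300LG (chr17:43841651-43843665), which encodes a receptor of the CD300 family, had 60.3 and 94.0, held no GC box in the whole peak, and overlapped all 8 anti-V5 lists but not the EWS list. In its summit window 73.1% of all words of 31 bases have a second copy in the genome. Another 3 lay in the ribosomal DNA on chromosome 21, at RNA5-8SN2 (chr21:8211130-8213460), at 5_8S_rRNA (chr21:8257772-8260932) and at RNA5-8SN1 (chr21:8440798-8446449), where 100% of words were repeated. LINC02018 (chr3:75434804-75436385), a noncoding RNA 32 bp from the summit, completed the 4 highest members present in the EWS list and in both parental anti-V5 lists, and ranked 25 and 40 in the latter.

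SP1 itself had a member peak at its start. This gene was picked after its values were seen. The peak (chr12:53379201-53381557, rank 333) had its summit 215 bp from the start, 2 GC boxes, and −log10 p of 35.8 and 89.5, so that the replicates differed widely. It recurred in the EWS list and in all 8 anti-V5 lists, and the nearest Sp1 WT peak was 39871 bp away.

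The members were mostly promoter sites, though less often than the other Sp1 DBD peaks. A summit within 1000 bp of an annotated transcription start was found for 639 members (83.2%, 95% Wilson interval 80.4 to 85.7) and for 2267 of the others (90.4%, 89.1 to 91.4). The difference of -7.15 percentage points was larger than the counting error (two-sided Fisher's exact test, adjusted p = 4.74e-07 over 3 site features, odds ratio 0.529). Without peaks in repeated sequence it was -2.46 points, with an adjusted p of 0.085 by the same exact test. The starts were those of protein-coding genes on 1 strand for 532 members and on both strands for 66 (8.59%, against 13.1% of the other peaks). Starts of noncoding genes alone accounted for 41 members, 29 of them long noncoding RNAs. The other 129 members had no start within 1000 bp, and 57 of these had none within 5000 bp although their sequence carries starts. By position, 253 summits lay in exons, 253 in introns and 262 between genes. The median distance to the nearest start was 143 bp for members and 116 bp for the others.

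Distal members were weaker than the strongest promoters. The highest was near RN7SL499P (chr2:231672809-231673759), 26925 bp from its start, with −log10 p of 53.7 and 37.8 and no GC box within 100 bp, and it recurred in the EWS list and in 1 anti-V5 list. A distal member on chromosome 8, which was not named, ranked second at 320 and was in 3 anti-V5 lists but not the EWS list. With chromosome 8 left out, next came a site 18029 bp from ENSG00000286428 (chr9:126722152-126723853), with 32.9 and 38.1 and 2 GC boxes. A site 6067 bp upstream of ACTB, the beta-actin gene (chr7:5569224-5570910), followed with 30.3 and 27.7. The latter 2 were in the EWS list and in none of the anti-V5 lists.

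GC boxes were nearly as frequent around the members as around the other Sp1 DBD peaks. Within 100 bp of the summit, 553 members held a GC box (72.0%, 95% Wilson interval 68.7 to 75.1), against 1911 of the other peaks (76.2%, 74.5 to 77.8). In windows 2000 bp to either side, 9.77% of the members' windows and 7.35% of the others' held one, and around the starts of 19970 protein-coding genes 46.9% of windows of equal length did. The difference of -4.16 points passed Fisher's exact test (adjusted p = 0.0219), but it was -1.05 points without repeated sequence (adjusted p = 0.57) and 1.01 points above the middle rank, where 78.7% of members and 77.7% of the others held a GC box. Over the whole peak, 93.6% of members and 96.8% of the others held at least 1, with a median of 6 in each. That difference of -3.19 points passed Fisher's exact test (adjusted p = 0.00017). Members with 3 or more GC boxes in the window numbered 239 (31.1%, against 29.3% of the others). The longer form GGGGCGGGG occurred in 29.0% and 30.8%, a difference that did not pass Fisher's exact test (adjusted p = 0.871 over 10 other motifs).

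GC boxes were more frequent around the summit than 975 bp before it, with a shallow dip in the bins beside it that was not tested. Among the 553 members with a GC box within 100 bp, the nearest was a median of 30 bp from the summit, against 32 bp for the 1911 others. Only boxes within 100 bp entered these medians, which therefore do not show how close to the summit the boxes lie in general. In 50-bp bins, 31.8% of members had a GC box just before the summit and 30.9% just after it. The share was 37.0% in the bin centred 75 bp before and 34.8% in that 75 bp after. It was 34.5% at 125 bp before and 38.4% at 125 bp after, and 29.6% and 29.7% at 175 bp. The other Sp1 DBD peaks had a similar shape, at 33.0% and 32.9% beside the summit. They had 37.7% in the bin 75 bp before and 39.2% in that 125 bp after. At 975 bp before the summit the shares were 5.73% and 5.42%.

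**Figure D2:**
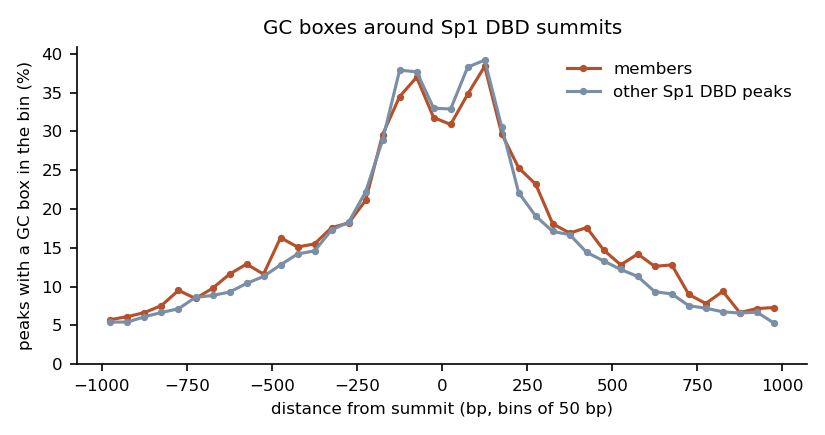
The horizontal axis is distance from the summit in bins of 50 bp and the vertical axis the percentage of peaks with a GC box in the bin, on either strand, for 768 members and 2509 other Sp1 DBD peaks. Both curves dip at the summit (31.8% and 33.0% just before it), rise to either side, and fall to 5.73% and 5.42% at 975 bp before it.

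Of 10 other motifs, CCAAT and the ETS element were less frequent at the members. CCAAT, the element of NF-Y, occurred within 100 bp of 161 member summits (21%) and of 732 others (29.2%), a difference of -8.21 points (exact test, adjusted p = 6.77e-05). The members' share was close to the 21.9% of windows 2000 bp away. The ETS element CCGGAAG occurred at 31 members (4.04%) and 187 others (7.45%, exact test, adjusted p = 0.00327), against 0.977% of the members' distant windows. Around the starts of protein-coding genes, 26% of windows held CCAAT and 10.2% the ETS element. These motif tests were not repeated by rank or without repeated sequence. For the CACCC box (CCACACCC), the cyclic AMP element (TGACGTCA), the E-box (CACGTG), the AP-1 site (TGANTCA), the NRF1 element (GCGCATGC), the YY1 core (AAGATGG) and the CTCF core the shares differed by less than 1 point, with adjusted p of 0.871 or 1 by the same exact test. Base composition was similar, with a median G or C content of 70.1% in the members' windows and 68.7% in the others', and medians of 18 and 17 CpG.

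Recurrence with the EWS chimera was less frequent at members. Of all 3277 Sp1 DBD peaks, 55.4% overlapped an EWS IDR-Sp1 DBD peak, and the share was 43.4% among the members (333 of 768, 95% Wilson interval 39.9 to 46.9) against 59.1% among the others (1483, 57.2 to 61.0). This difference of -15.7 points passed the test (two-sided Fisher's exact test, adjusted p = 2.84e-14 over 6 recurrence tests). It was -9.52 points above the middle rank, where 197 of 286 members (68.9%) and 78.4% of the others recurred. Below the middle rank it was -8.34 points, where 28.2% and 36.6% recurred. In the 4 equal parts of the list, from the highest to the lowest, 72.5%, 64.8%, 34.3% and 24.7% of members recurred. The others were at 87.6%, 69.1%, 45.5% and 25.6%, so the shares were close in the lowest part. Values by part were not tested. Members that recurred ranked at a median of 1287 in the EWS list, and the other recurring peaks at 1075. Seen from the EWS list, 335 of its 2535 peaks (13.2%) overlapped a Sp1 DBD peak and no Sp1 WT peak, and 71.8% overlapped Sp1 WT. The selection itself used another anti-FLAG list, of a protein with the same zinc fingers, and the members were weaker peaks. How far either accounts for the lower recurrence was not tested, and the exact test cannot separate them.

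Endogenous full-length Sp1 was detected at part of the members. In the parental line, 190 members (24.7%, 95% Wilson interval 21.8 to 27.9) had a peak with the rabbit antibody and 180 (23.4%, 20.6 to 26.6) had one with the mouse antibody, whereas each list was overlapped by 37.3% of all Sp1 DBD peaks. The other Sp1 DBD peaks reached 41.1% and 41.6%, and both differences, -16.4 and -18.1 points, passed the exact test (adjusted p = 1.28e-16 and 4.04e-20). Above the middle rank the rabbit antibody gave 50.0% and 54.2%, a difference that did not pass the exact test (adjusted p = 0.32), and the mouse antibody 46.9% and 55.8%, which did (adjusted p = 0.012). Below the middle rank the members were at 9.75% and 9.54%, against 25.8% and 25.0%. With every anti-V5 list counted, 275 members (35.8%) and 1468 others (58.5%) recurred at least once, against 53.2% of all Sp1 DBD peaks (exact test, adjusted p = 1.49e-27). The members were chosen as absent from a list of full-length Sp1, and the anti-V5 lists also read full-length Sp1. Lower recurrence may therefore reflect the selection, which was not tested, and the members were also weaker peaks. These tests cannot separate such effects.

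**Figure D3:**
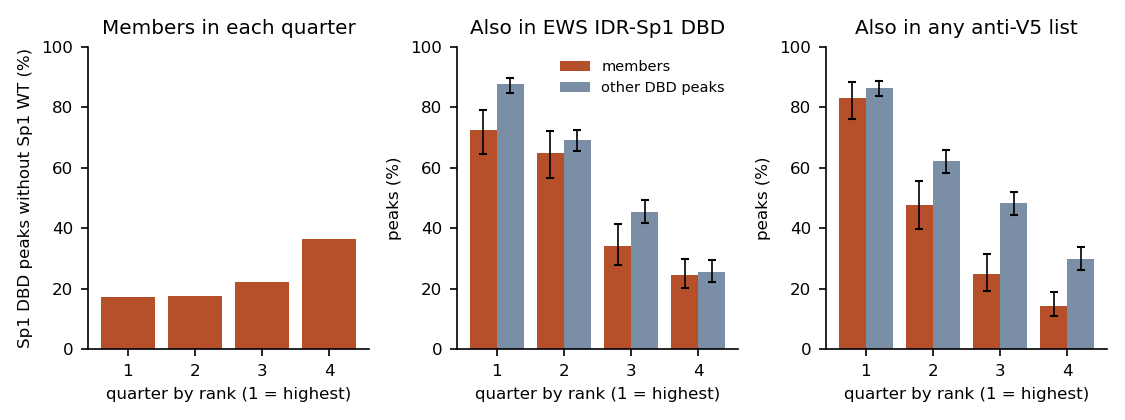
The left panel gives the percentage of Sp1 DBD peaks that are members in each of 4 equal parts of the list by rank, and the other panels give the percentage of members and of other peaks that recur in the EWS IDR-Sp1 DBD list or in any anti-V5 list, with 95% Wilson intervals. Recurrence of members in any anti-V5 list fell from 83.1% in the highest part to 14.3% in the lowest, and that of the others from 86.4% to 29.9%. In the EWS list it fell from 72.5% to 24.7% for members and from 87.6% to 25.6% for the others.

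The line that expresses Sp1 WT also showed V5 signal at members. There, rabbit anti-V5 gave peaks at 166 members (21.6%) and mouse anti-V5 at 161 (21%), against 37.5% and 32.8% of the other Sp1 DBD peaks. At least 1 of these antibodies gave a peak at 189 members (24.6%, against 41.9% of the others), although by definition the anti-FLAG list from the same line had none. In the Sp1 IDR-LacI line the counts were 180 and 181 for rabbit and mouse antibody (23.4% and 23.6%, against 45.5% and 39.7% of the others). In the Sp1 IDR-CTCF DBD line they were 202 and 160 (26.3% and 20.8%, against 45.8% and 34% of the others). Thus the 8 lists lay within 160 to 202 members. Of the peaks in these lists, 76.6% to 83.2% overlapped a Sp1 WT anti-FLAG peak and 8.56% to 12.1% a Sp1 DBD peak without one.

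Most members were in none or in all of the anti-V5 lists. No anti-V5 list held 493 members (64.2%), while 88 (11.5%) were in all 8, which was the most frequent number above 0. Among the other Sp1 DBD peaks, 41.5% were in no anti-V5 list and 20.2% (508) in all 8. Of the 88 members, 59 (67.0%) were also in the EWS list and 75 (85.2%) above the middle rank, against 72.8% and 79.9% of the 508 others. A start lay within 1000 bp of 80 (90.9%, against 90.3%) and a GC box within 100 bp of 72 (81.8%, against 81.9%).

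**Figure D4:**
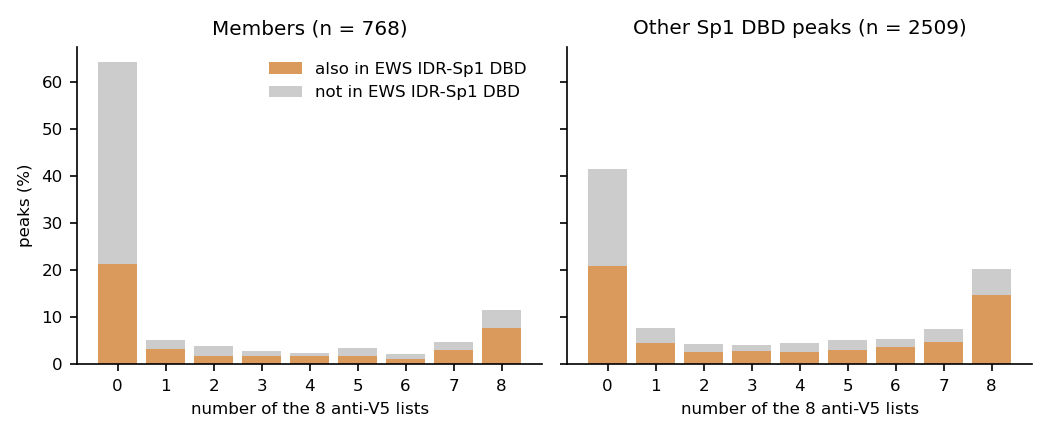
The horizontal axis is the number of anti-V5 lists, of 8, in which a Sp1 DBD peak recurs, and the vertical axis the percentage of peaks, split by recurrence in the EWS IDR-Sp1 DBD list. Of the 768 members 64.2% are in no list and 11.5% in all 8, against 41.5% and 20.2% of the 2509 other peaks.

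By both criteria together, the members fell into 4 sets. The largest, 329 members (42.8%), had neither an EWS nor an anti-V5 peak, against 20.6% of the other Sp1 DBD peaks. Another 169 (22%) had both, against 38.3% of the others. An EWS peak alone was found at 164 members (21.4%) and 20.8% of the others, and an anti-V5 peak alone at 106 members (13.8%) and 20.2% of the others. Ranks differed between these sets, with a median of 765 for members with both and 2670 for members with neither. The promoter share ranged from 78.7% to 85.9% over the sets and the GC box share from 69.0% to 77.5%. CCAAT occurred in 32.5% and 35.8% of the sets with anti-V5 peaks (with and without EWS), and in 12.2% and 14.6% of the sets without. These shares are descriptions of sets of different rank and were not tested.

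Members with an EWS peak and no anti-V5 peak included both coding promoters and repeated sequence. The highest was a site 2374 bp from ENSG00000263394 (chr17:19088657-19091592), with −log10 p of 42.9 and 47.6 and 100% repeated words. DNAJC28, which encodes a J-domain protein (chr21:33490935-33492161), had 46.9 and 39.4, its summit 31 bp from the start, and rank 94 in the EWS list. The ENSG00000286428 site described above was the third of these. The fourth lay within 1000 bp of the starts of TOMM6, a subunit of the mitochondrial outer membrane translocase, and FRS3 (chr6:41785870-41787734), with 32.0 and 33.9, and it also overlapped the CTCF DBD peak of rank 6.

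Some strong members appeared in no list other than that of the Sp1 DBD. There were 316 such members (41.1%), against 491 of the others (19.6%, when the Sp1 WT list is set aside). The highest was a site 1831 bp from GRAPLDR (chr17:19160714-19163525), with 41.0 and 38.9 and 100% repeated words. SLC35C1, the gene of a Golgi transporter of GDP-fucose (chr11:45803902-45805710), had 37.5 and 36.2, its summit 112 bp from the start and 2 GC boxes in unique sequence. CDK18, a cyclin-dependent kinase gene (chr1:205504227-205505871), had 38.6 and 29.1, its summit 1 bp from the start and no GC box within 100 bp, although the peak as a whole held 5.

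Few members coincided with the CTCF DBD. Of all Sp1 DBD peaks 4.27% overlapped a CTCF DBD peak, and the share was 4.04% among members (31 of 768) and 4.34% among the others (109), a difference of -0.308 points that did not pass the exact test (adjusted p = 0.761). The 95% Wilson intervals were 2.86 to 5.67 and 3.61 to 5.21. Described without a test, these 31 members were often repeated and seldom promoters. Their summit windows were in repeated sequence in 48.4%, held a GC box in 38.7% and lay within 1000 bp of a start in 45.2%, and 19 were also in the EWS list, 18 in an anti-V5 list and 11 in the Sp1 IDR-CTCF DBD list. With unplaced sequences left out, the highest 2 were ribosomal DNA peaks at RNA5-8SN2, the second of them at chr21:8213639-8219167 with 54.5 and 43.6. A peak on the unplaced sequence Un_GL000220v1, at rank 49, lay between them. NECTIN2, a cell adhesion gene (chr19:44844454-44847136), followed with 39 and 50.3, its summit 329 bp from the start, and it recurred in the EWS list and in 7 anti-V5 lists.

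**Figure D5:**
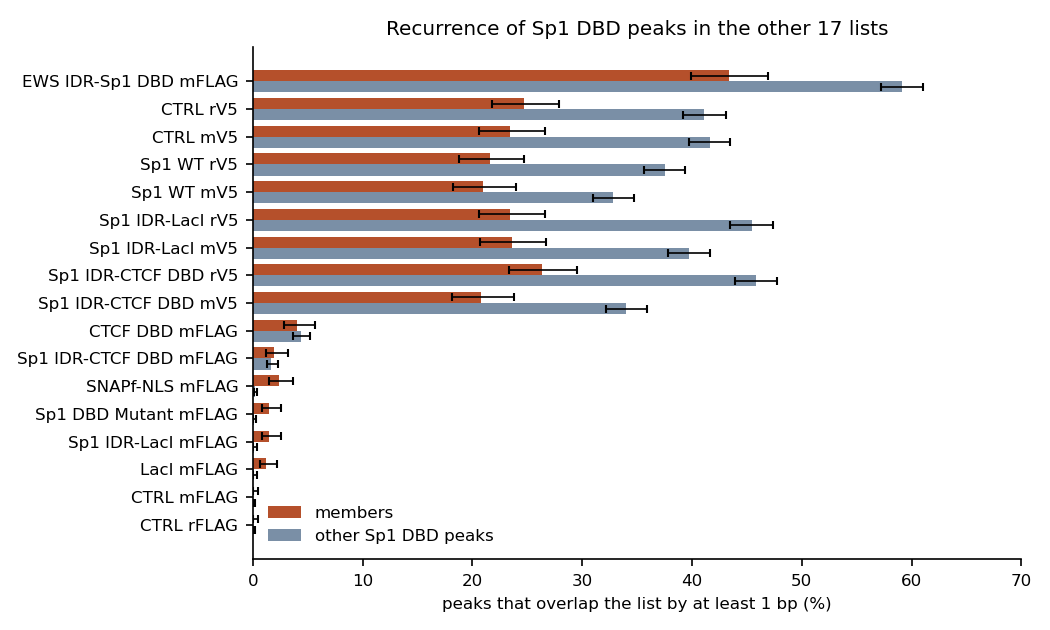
Bars give the percentage of the 768 members and of the 2509 other Sp1 DBD peaks that overlap each of the other lists by at least 1 bp, with 95% Wilson intervals over peaks. Members were below the others in the EWS IDR-Sp1 DBD list (43.4% and 59.1%) and in every anti-V5 list, at a similar share in the CTCF DBD list (4.04% and 4.34%), and above them in the SNAPf-NLS list (2.34% and 0.159%).

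Repeated sequence was more frequent at members over the whole list. A summit window was called repeated when at least 50% of its 31-base stretches had another copy in hg38, which applied to 74 members (9.64%, 95% Wilson interval 7.74 to 11.9) and 128 others (5.1%, 4.31 to 6.03), with an adjusted p of 2.26e-05 by the exact test. The difference of 4.53 points did not pass the exact test above the middle rank (2.97 points, adjusted p = 0.12), at an irreproducible discovery rate of 0.01 (3.09 points, adjusted p = 0.13) or against a Sp1 WT list of equal length (1.37 points, adjusted p = 0.17). How reads were placed at these sites was not tested. Of the 74, 40 were in the EWS list and 24 held a GC box within 100 bp. The ribosomal DNA window on chromosome 21 and its unplaced copy held 11 members, ranks 40 to 2058, of which 10 were in the EWS list and 7 in an anti-V5 list, as well as 7 of the other Sp1 DBD peaks. No other class of repeat was counted. Repeated members also included narrow peaks far from any start. The peak at chr10:39965115-39965261, 1182188 bp from the nearest start, had 100% repeated words and was in the CTCF DBD and EWS lists. That at chr1:122920020-122920176, 1339562 bp from a start, also had 100% and was in neither.

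Control FLAG lists met few members. The anti-FLAG lists of the parental line, of 22 and 54 peaks, overlapped none of them. The SNAPf-NLS list overlapped 18 members (2.34%) and 4 others (0.159%, exact test, adjusted p = 1.28e-08), all 18 in repeated sequence. The lists of the Sp1 DBD Mutant, Sp1 IDR-LacI and LacI overlapped 11, 11 and 9 members (1.43%, 1.43% and 1.17%) and 2, 3 and 3 of the others (0.0797%, 0.12% and 0.12%). Without the 18 members, the GC box difference was -2.55 points (exact test, adjusted p = 0.16).

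The members touched the starts of 680 protein-coding genes, and the other Sp1 DBD peaks those of 2481, with 35 genes in both. Groups were taken by symbol prefix and are given as counts without a test. Solute carriers, which move ions and metabolites across membranes, gave 17 member genes (2.5%, against 1.93% of the other genes), among them SLC30A1, which exports zinc and whose peak was in the EWS list and in all 8 anti-V5 lists. ZNF genes, which encode zinc finger proteins, gave 11 (1.62% against 2.5%). Cytosolic ribosomal proteins, subunits of oxidative phosphorylation and histones gave 0 member genes, against 7, 12 and 3 of the other genes (0.282%, 0.484% and 0.121%). Mitochondrial ribosomal proteins gave 1, MRPS6 (0.147%), against 10 (0.403%). TFIID, Mediator and RNA polymerase II gave 1, MED16 (0.147%), against 15 (0.605%).

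Regulators of transcription and protein turnover appeared in small numbers. The SP and KLF family gave 3 member genes (0.441%), SP1, KLF12 and KLF13, against 8 of the other genes (0.322%), with KLF13 in both sets. KLF13 had another Sp1 DBD peak that overlapped Sp1 WT. KLF12 (rank 862) recurred in the EWS list and in no anti-V5 list, and KLF13 (rank 2264) in neither. The prefixes of developmental factors matched FOXF1, NKX2-8, SOX6 and SOX8, and also TBXA2R, which encodes a thromboxane receptor and not a transcription factor, so 5 symbols (0.735%) against 5 of the other genes (0.202%). Of the proteasome genes, PSMB9, PSMD13 and PSME4 had a member (3 genes, 0.441%, against 11 of the other genes, 0.443%), with PSMB9 sharing its site with TAP1, the peptide transporter of antigen presentation. RAB and ARF GTPases gave 4 (0.588%) against 20 (0.806%), ion channels 1 (0.147%) against 13 (0.524%), and HOX genes 0 against 1 (0.0403%).

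Members without a GC box anywhere in the peak were few. There were 49 such members, as 93.6% of members held at least 1 GC box in the peak, against 96.8% of the other Sp1 DBD peaks. The highest after the CD300LG site was ATF6B (chr6:32127883-32129542), which encodes a transcription factor of the endoplasmic reticulum stress response, with −log10 p of 22.4 and 34.6 and peaks in 7 anti-V5 lists and the EWS list. The next, at SOX9-AS1 (chr17:72236604-72236846), was 243 bp wide with 18.4 and 17.1, and 97.1% of its words were repeated.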

How the data were processed

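CUT&RUN peak lists of 19 combinations of line and antibody were used, from 38 samples with 2 biological replicates each, grouped by the sample labels. Adapter removal was with Cutadapt 2.6 and alignment, to hg38, with Bowtie2 2.3.5.1. After duplicate removal the authors ran MACS on each replicate with a lenient p-value limit, using pooled control replicates as background, and the deposited lists hold peaks whose irreproducible discovery rate (IDR) is 0.1 or less. The deposited −log10 p-values of merged peaks and replicates and the deposited score (−log10 of the global IDR) were used to rank and filter peaks. Whether a blacklist was applied to peaks is not given in the sources used here. The read numbers of the study were not analysed here, so depth entered no value and intervals cover counting error over peaks only. A set of 6 deposited tables of differential regions between Sp1 WT and a construct, which are the authors' own comparisons, was not used.

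Overlap meant at least 1 bp in common and was checked against bedtools 2.31.1, with a different number in 0 of 18 lists. Motifs were searched on both strands of the 201 bases around each summit, and starts were those of GENCODE 44. The test of each share was Fisher's exact test, two-sided (SciPy 1.17.1), with Benjamini-Hochberg adjustment within families of 3 site features, 6 recurrences and 10 other motifs, at a threshold of 0.05. P-values over peaks compare these lists, not cultures, and neighbouring peaks are not independent. The code was tested on simulated data. The members and lists were chosen with earlier results of these data known.

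Named members, on chromosomes 1 to 22 and X without chromosome 8, were the 10 with the highest −log10 p, the 4 highest in the EWS and both parental anti-V5 lists, the 4 highest in the EWS list and no anti-V5 list, and the 3 highest each in the CTCF DBD list, over 5000 bp from any start, without a GC box in the peak, and in no other list. SP1, SLC30A1, the narrow repeated peaks and the group members were named beyond this rule, after their values were seen. Printed windows were widened from 50 to 100 bp on each side of the summit after GC boxes were seen to flank it. Among the named members of each class, the highest outside repeated sequence with and without a GC box was shown, except CDK18. Other software was Python 3.11.15, NumPy 2.4.6, pandas 2.3.3, pysam 0.24.0, numba 0.67.0 and matplotlib 3.10.9.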

Additional observations from a re-analysis of the deposited data

How the results depend on the processing

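Differences below are members minus other Sp1 DBD peaks, in percentage points. The number of members, 768, fell to 238 when the Sp1 DBD list was held to an IDR of 0.01 and rose to 1240 against a Sp1 WT list cut to equal length. At that IDR the GC box difference was 1.75 (the opposite sign), and those for promoters (-3.96), repeated sequence (3.09), parental rabbit (-2.30) and mouse anti-V5 (-7.26) and control FLAG lists (0) no longer passed the test. The peaks above the middle rank gave 1.01 for the GC box (the opposite sign), and -4.19 for promoters, 2.97 for repeated sequence, -4.22 for parental rabbit anti-V5 and 0.276 for control lists, none past the threshold. Against the Sp1 WT list of equal length, the GC box (-2.12) and repeated sequence (1.37) did not pass. Without repeated sequence, the GC box (-1.05), promoters (-2.46) and control lists (0) did not pass. The GC box difference also missed the threshold at an IDR of 0.05 in every list (-2.17), without peaks over control FLAG lists (-2.55), within 50 bp (-3.05) and as the longer box (-1.77). Over the whole peak it passed (-3.19, exact test, adjusted p = 0.00017). The settings by rank, IDR, repeated sequence and control lists used fewer Sp1 DBD peaks, whereas those of equal length, window and box form used all. Why the values changed was not tested. Of 101 tested alternative values, 81 kept their side of the threshold, among them all those for the EWS list (-8.34 to -23) and for any anti-V5 list (-7.67 to -39.3). How far the differences for the EWS and anti-V5 lists come from the way the members were chosen, or from their rank, was not tested. For any anti-V5 list the value was -7.67 at an IDR of 0.01 (exact test, adjusted p = 0.046), -8.95 above the middle rank and -39.3 at equal length, and for the EWS list -10.6, -9.52 and -23, with -8.34 below the middle rank. No paired analysis was possible because the replicates had already been merged into 1 list by the authors, and no replicate could be left out for that reason.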

Other observations

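The members were spread over all chromosomes. On chromosomes 1 to 22 and X they made up between 17% (chromosome 20, 16 of 94) and 44.7% (chromosome 21, 21 of 47) of the Sp1 DBD peaks, and 8 of the 21 on chromosome 21 lay in the ribosomal DNA. On chromosome 13, 17 of 47 were members (36.2%), and on chromosomes 1 and 19, which held the most members, 74 of 322 and 67 of 309. Another 7 members lay on unplaced or unlocalized sequences.

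Seen from the lists of endogenous Sp1, some peaks had neither a Sp1 WT nor a Sp1 DBD anti-FLAG peak. In the rabbit anti-V5 lists these were more than the peaks that overlapped a Sp1 DBD peak without a Sp1 WT peak, with 208 against 194 in the parental line, 251 against 167 in the Sp1 WT line, 241 against 182 in the Sp1 IDR-LacI line and 241 against 204 in the Sp1 IDR-CTCF DBD line. In the mouse anti-V5 lists they were fewer, with 127 against 180, 82 against 161, 148 against 181 and 103 against 160 in the same order. No test was run on this difference between the antibodies.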
